A study of Homo sapiens with 58 samples.

Results

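The high dose of Bojungikgi-tang was set against the high dose of Sayeok-tang in HepG2 cells, a human line derived from a hepatocellular carcinoma that still makes many proteins of the hepatocyte. Bojungikgi-tang and Sayeok-tang are traditional herbal formulas, given here as water extracts. The samples were chosen by their labels: 2 libraries of Bojungikgi-tang at 500 µg/mL (numbered 2 and 3) and 3 libraries of Sayeok-tang at 500 µg/mL, 5 of the 58 libraries analysed. Each formula also had a medium dose of 100 µg/mL and a low dose of 20 µg/mL, with 2 libraries a dose for Bojungikgi-tang and 3 for Sayeok-tang. A vehicle group of 3 libraries received 0.1% DMSO and no extract, and all groups were harvested after 24 h. All of these groups carry the same batch letter, C. The formula libraries share the label prefix 8, whereas the vehicle libraries have the prefix C1. In a comparison with the vehicle the prefix and the extract therefore cannot be told apart. The labels give no DMSO content for the formula libraries, so a difference in DMSO cannot be told apart there either. The labels list no ingredients for either formula and do not say whether the libraries of a group came from separate cultures. The p-values rest on the spread between libraries within a group, which may therefore be technical. That spread was estimated together over all 58 libraries in 24 groups. The groups not described here received ethanol extracts of single herbs.

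As background, Sayeok-tang is traditionally made from processed aconite, dried ginger and licorice, and Bojungikgi-tang from astragalus and ginseng with other herbs, licorice among them. Plant extracts reach a liver cell through sensors that switch on genes for their removal. The aryl hydrocarbon receptor (AhR) switches on CYP1A1, an oxidase of planar aromatic compounds, and NRF2 switches on genes that make glutathione and reduce oxidised or electrophilic molecules. MTF1 responds to free zinc and switches on the metallothioneins, small cysteine-rich proteins that hold zinc and copper. SREBP2 runs cholesterol synthesis, and growth factor and stress kinases switch on the AP-1 and EGR immediate early genes. The fibrinogen chains, haptoglobin and FXR (the bile acid receptor, encoded by NR1H4) are products of differentiated hepatocytes.

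The 5 high dose libraries held between 24872484 and 30911277 counts each. Levels in CPM below are a gene's counts relative to the library's TMM-scaled total. The marker sums in this paragraph and the percentages of counts from the mitochondrial DNA use the unscaled total instead. All are shares of the sequenced RNA: fewer cells and less RNA per cell cannot be told apart from them. Hepatocyte markers were all present, 12 of 12, and summed to 39594 to 40385 CPM in the Bojungikgi-tang libraries and 35626 to 37856 CPM in the Sayeok-tang libraries. Of markers of other cells, 10 fibroblast genes summed to 7.48 to 9.03 CPM in Bojungikgi-tang and 11.9 to 13.6 CPM in Sayeok-tang, nearly all of it PDGFRB, with 6 and 5 of them at 0. The 10 leukocyte genes summed to 1735 to 1864 CPM in Bojungikgi-tang and 1904 to 1990 CPM in Sayeok-tang. PTPRC, CD3E and MS4A1 were the 3 at 0 in each group, and ITGAM and CSF1R had at most 2 counts in a library. The 8 intestinal genes summed to 471 to 492 CPM in Bojungikgi-tang and 429 to 435 CPM in Sayeok-tang, also with 3 at 0 in each. The 8 endothelial genes reached at most 6.55 CPM in Bojungikgi-tang and 5.06 CPM in Sayeok-tang, and the 6 lung genes 2.33 and 2.08 CPM. These sums differed between the formulas in the direction of several genes below, and their part in those results was not tested.

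At the high dose the formulas gave different transcriptomes. Of 13945 genes tested, 3656 differed at an adjusted p below 0.05 (edgeR's quasi-likelihood test with Benjamini-Hochberg adjustment), which is 26.2% of all genes: 1811 were higher in Bojungikgi-tang (13.0%) and 1845 lower (13.2%). Most differences were small, with a median absolute log2 fold change of 0.278 among the called genes. At least 2-fold differences were called for 163 genes, 87 of them higher (0.624% of all genes) and 76 lower (0.545%). The median over all genes was 0.006 on the log2 scale. The call count leaned on the Bojungikgi-tang library numbered 2: without it 2099 genes were called, 2036 of them among the 3656 and in the same direction. All log2 fold changes below are of Bojungikgi-tang over Sayeok-tang with their standard error, unless another comparison is named. Of the most raised and most lowered genes, the 23 reported by name kept their call and direction under all 12 alternative settings.

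Metallothioneins MT1F and MT1G had the largest rises among the named genes, which reached at least 5 CPM in the higher group. MT1F had 24.0 and 22 CPM in Bojungikgi-tang, against 6.19, 5.33 and 5.31 CPM in Sayeok-tang and 62.0, 54.1 and 62.9 CPM in the vehicle. Both formulas were below the vehicle, Sayeok-tang by far more, and no libraries of the 3 groups overlapped. MT1F was thus 4.11-fold higher in Bojungikgi-tang than in Sayeok-tang (log2 2.04 ± 0.12, edgeR adjusted p = 1.8e-18). MT1G had 43.3 and 54.8 CPM, against 14.9, 12.1 and 10.8 CPM in Sayeok-tang and 146, 126 and 142 CPM in the vehicle (log2 1.97 ± 0.16, edgeR adjusted p = 2.5e-13). MT1X had 30.3 and 30.5 CPM, against 12.5, 10.9 and 10.4 CPM in Sayeok-tang and 68.8, 63.2 and 72.5 CPM in the vehicle (log2 1.44 ± 0.11, edgeR adjusted p = 1.9e-14). MT1E followed the same order, with 90.0 and 110 CPM in Bojungikgi-tang, 50.1, 41.4 and 42.0 CPM in Sayeok-tang and 238 to 259 CPM in the vehicle (log2 1.17 ± 0.11).

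MT2A, another zinc-binding metallothionein, did not show that order. It had 180 and 216 CPM in Bojungikgi-tang, against 210, 194 and 186 CPM in Sayeok-tang and 514, 435 and 500 CPM in the vehicle. The formulas' libraries overlapped and lay well below the vehicle in both (log2 0.01 ± 0.11, edgeR adjusted p = 0.95). MT1M was read too rarely for a fold: 8 and 10 counts in Bojungikgi-tang, 1, 0 and 2 in Sayeok-tang and 60 to 76 in the vehicle. MT1A did not pass the test (log2 0.61 ± 0.25, edgeR adjusted p = 0.066). Of the 7 metallothioneins tested, 5 were called higher and none lower, where 13.0% of all genes were called higher. The list's median was 1.44, and 1.31 without MT1M, against 0.006 for all genes. The metallothionein genes lie together on chromosome 16 and are close in sequence, so reads shared between them were divided by estimation and the split between members is uncertain.

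**Figure D1:**
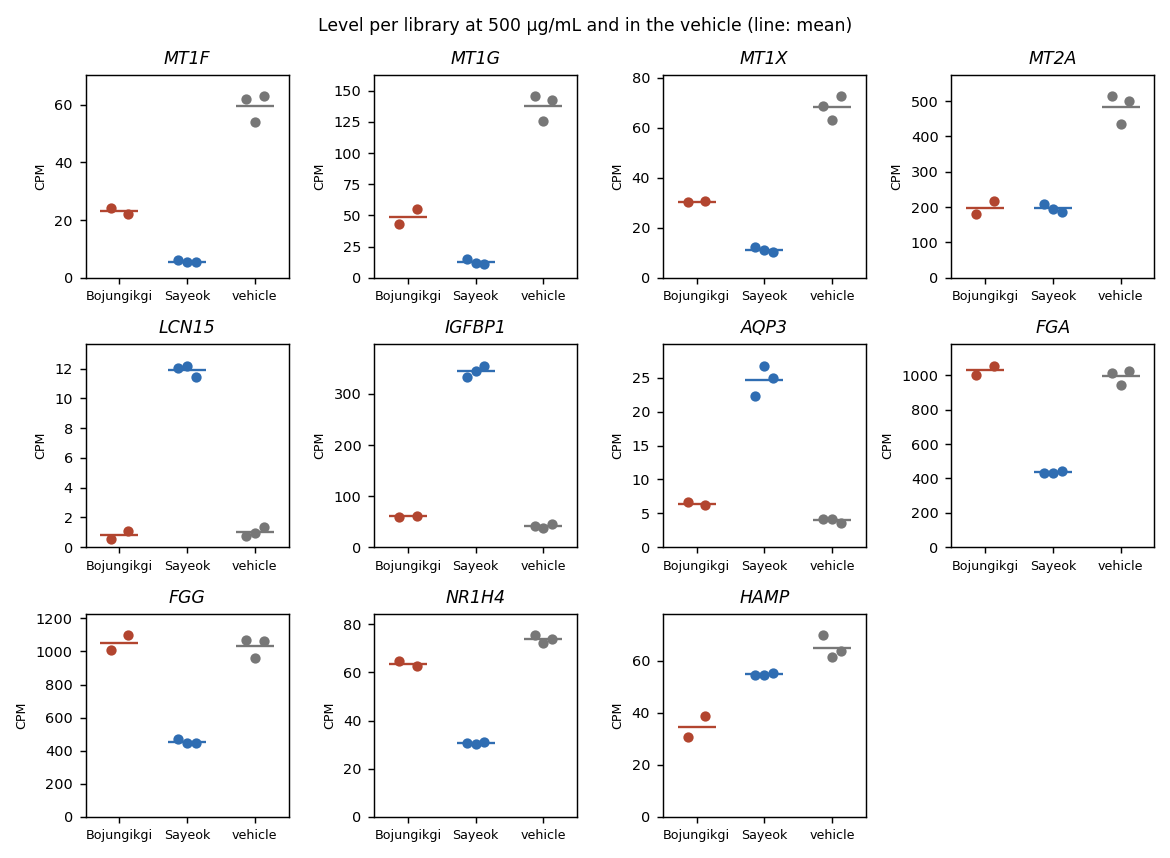
CPM of 11 genes in each library of Bojungikgi-tang at 500 µg/mL, Sayeok-tang at 500 µg/mL and the vehicle; points are libraries and the line is the group mean. MT1F, MT1G, MT1X, FGA, FGG and NR1H4 are higher in Bojungikgi-tang than in Sayeok-tang, LCN15, IGFBP1, AQP3 and HAMP are lower, and the MT2A libraries of the formulas overlap.

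The promoters of MT1X and MT2A are shown because their genes parted at the high dose while both hold the metal response element, the short sequence that MTF1 binds. Each runs from 250 bases before to 50 bases after the start of the gene in RefSeq (GRCh38.p14), with every match of TGCACNC or TGCGCNC on either strand in capitals.
MT1X promoter, chr16:56682220-56682519, plus strand: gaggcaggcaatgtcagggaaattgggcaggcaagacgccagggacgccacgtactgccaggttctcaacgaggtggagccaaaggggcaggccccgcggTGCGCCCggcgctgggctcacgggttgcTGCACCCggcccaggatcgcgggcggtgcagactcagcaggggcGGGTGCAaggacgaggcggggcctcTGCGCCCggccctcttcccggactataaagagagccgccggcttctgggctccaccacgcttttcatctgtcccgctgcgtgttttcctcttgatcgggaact
MT2A promoter, chr16:56608334-56608633, plus strand: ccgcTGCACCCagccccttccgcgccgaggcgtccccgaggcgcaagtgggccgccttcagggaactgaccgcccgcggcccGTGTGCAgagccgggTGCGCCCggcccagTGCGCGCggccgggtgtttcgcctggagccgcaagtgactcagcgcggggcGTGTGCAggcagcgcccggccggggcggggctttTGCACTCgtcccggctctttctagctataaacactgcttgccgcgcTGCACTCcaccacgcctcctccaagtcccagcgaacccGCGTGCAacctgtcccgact
MT1X holds 4 matches and MT2A 8. The motif was in 3 of the 3 metallothionein promoters in the RefSeq table and in 33.4% of all 27305 promoters of that length. A match is a stretch of letters and no measure of binding.

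Genes of the zinc transporter families SLC30 and SLC39 moved in both directions. SLC30A1, which exports zinc from the cell and is itself an MTF1 target, had 98.9 and 104 CPM in Bojungikgi-tang, against 72.4, 74.8 and 79.0 CPM in Sayeok-tang and 127 to 132 CPM in the vehicle (log2 0.42 ± 0.045, edgeR adjusted p = 2.4e-10). SLC39A10, a plasma membrane zinc importer, ran the other way, with 19.3 and 20.3 CPM in Bojungikgi-tang, 34.7, 40.1 and 35.6 CPM in Sayeok-tang and 13.7 to 14.4 CPM in the vehicle (log2 -0.89 ± 0.064, edgeR adjusted p = 2.9e-15). In both genes Bojungikgi-tang lay between Sayeok-tang and the vehicle and no libraries overlapped. SLC30A10 (log2 0.47), listed by its family and not for known zinc transport, and SLC39A5 (log2 0.39) were also higher. In all, 4 of the 11 listed genes tested were higher and 4 lower, against 13.0% and 13.2% of all genes.

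CYP1A1 was the most changed of the AhR targets, leaving out CYP1A2, which was read too rarely for a fold. It had 82.0 and 86.1 CPM in Bojungikgi-tang, against 274, 299 and 304 CPM in Sayeok-tang and 12.7, 10.7 and 14.0 CPM in the vehicle. Both formulas were far above the vehicle, and Bojungikgi-tang was 3.48-fold lower than Sayeok-tang (log2 -1.80 ± 0.083, edgeR adjusted p = 1e-21). AHRR, the AhR repressor, had 0.608 and 0.832 CPM in Bojungikgi-tang and 1.37 to 1.62 CPM in Sayeok-tang (log2 -1.07 ± 0.27), and its call was lost without the Bojungikgi-tang library numbered 2 (log2 -0.87, edgeR adjusted p = 0.078). TIPARP, another AhR target, did not pass the test (log2 -0.07 ± 0.078, edgeR adjusted p = 0.58; named after its value was seen). CYP1A2 had 7 and 1 counts in Bojungikgi-tang, 7, 22 and 18 in Sayeok-tang and 1, 2 and 0 in the vehicle, and its call was lost without the Bojungikgi-tang library numbered 3 or the Sayeok-tang library numbered 2. Of 9 targets tested 6 were lower, against 13.2% of all genes, and none higher. The median was -0.52, and -0.34 without CYP1A2. The CYP1A1 promoter window is shown for its match to the core of the xenobiotic response element, GCGTG, in capitals.
CYP1A1 promoter, chr15:74725479-74725778, minus strand: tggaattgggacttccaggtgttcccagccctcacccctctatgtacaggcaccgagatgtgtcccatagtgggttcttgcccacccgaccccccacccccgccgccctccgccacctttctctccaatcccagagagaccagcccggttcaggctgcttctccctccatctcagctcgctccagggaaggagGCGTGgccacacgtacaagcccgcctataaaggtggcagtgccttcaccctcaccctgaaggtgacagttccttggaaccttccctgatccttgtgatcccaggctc
GCGTG, searched on both strands, was in 7 of the 10 AhR target promoters in the table and in 40.6% of all promoters.

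NRF2 targets were lower in Bojungikgi-tang almost throughout. AKR1B10, an aldo-keto reductase, had 152 and 157 CPM in Bojungikgi-tang, against 340, 330 and 360 CPM in Sayeok-tang and 93.2 to 98.7 CPM in the vehicle (log2 -1.15 ± 0.060, edgeR adjusted p = 4.8e-20). GCLM, the modifier subunit of the enzyme that limits glutathione synthesis, had 65.4 and 74.6 CPM, against 128, 131 and 136 CPM in Sayeok-tang and 52.0 to 56.4 CPM in the vehicle (log2 -0.91 ± 0.067). SLC7A11, the cystine importer, had 54.0 and 55.5 CPM, against 110, 118 and 118 CPM in Sayeok-tang and 48.0 to 52.0 CPM in the vehicle (log2 -1.07 ± 0.065). In each of these genes the Bojungikgi-tang libraries were nearer to the vehicle than to Sayeok-tang. TXNRD1 (log2 -0.86) and SRXN1 (log2 -0.81), which reduce thioredoxin and peroxiredoxins, and NQO1 (log2 -0.52) were also lower. Of 25 targets tested 20 were lower and 1, the glutathione peroxidase GPX2, was higher (log2 0.28), with a list median of -0.31. Among all genes 13.2% were called lower and 13.0% higher. SQSTM1, an autophagy receptor and NRF2 target, was lower too (log2 -0.85 ± 0.040).
GCLM promoter, chr1:93909381-93909680, minus strand: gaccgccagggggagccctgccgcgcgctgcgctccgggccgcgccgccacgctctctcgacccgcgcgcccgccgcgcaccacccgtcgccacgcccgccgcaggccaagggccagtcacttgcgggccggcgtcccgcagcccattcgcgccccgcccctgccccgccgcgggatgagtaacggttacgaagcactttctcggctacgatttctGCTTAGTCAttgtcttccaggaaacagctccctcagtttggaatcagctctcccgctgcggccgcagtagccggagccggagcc
The capitals mark its match to the core antioxidant response element TGACNNNGC, here on the opposite strand. That motif was in 5 of the 18 NRF2 target promoters in the table and in 16.1% of all promoters. Efflux pumps that carry conjugates out of the cell followed the NRF2 genes, ABCC2 (log2 -0.51 ± 0.051), ABCG2 (log2 -0.50 ± 0.067) and ABCC1 (log2 -0.47 ± 0.055). The sterol pump ABCG8 was higher (log2 0.42 ± 0.080). Over the 11 efflux and sterol transporters 6 were lower and 3 higher.

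Beside CYP1A1, the largest falls were in genes that were much nearer to the vehicle in Bojungikgi-tang than in Sayeok-tang. LCN15, a lipocalin, had 0.527 and 1.11 CPM in Bojungikgi-tang, against 12, 12.2 and 11.4 CPM in Sayeok-tang and 0.740, 0.929 and 1.34 CPM in the vehicle, a 14.4-fold difference (log2 -3.85 ± 0.21, edgeR adjusted p = 1.3e-19). Without the Bojungikgi-tang library numbered 3 its log2 fold change was -4.48, and without the one numbered 2 it was -3.42. IGFBP1, a secreted binder of insulin-like growth factors, had 59.4 and 61.7 CPM, against 332, 345 and 355 CPM in Sayeok-tang and 38.3 to 46.0 CPM in the vehicle (log2 -2.51 ± 0.13, edgeR adjusted p = 5.8e-20). In both of these the groups of the formulas stood wide apart, and the LCN15 libraries of Bojungikgi-tang overlapped the vehicle. AQP3, a water and glycerol channel, had 6.61 and 6.26 CPM, against 22.3, 26.8 and 25.0 CPM in Sayeok-tang and 3.57 to 4.24 CPM in the vehicle (log2 -1.94 ± 0.097). The stress cytokine GDF15 had 170 and 175 CPM, against 501, 468 and 449 CPM in Sayeok-tang and 156 to 177 CPM in the vehicle (log2 -1.45 ± 0.073). CYP24A1, which degrades active vitamin D, had 39.7 and 41.7 CPM, against 106, 114 and 115 CPM in Sayeok-tang and 44.9 to 45.8 CPM in the vehicle (log2 -1.46 ± 0.053). Bojungikgi-tang was below the vehicle in that gene, though not by a called difference (edgeR adjusted p = 0.11). The other largest falls were SLC16A6 (log2 -1.69), PLAC8 (log2 -1.60), TMCC1 (log2 -1.46), the small GTPase RASD1 (log2 -1.46) and the matricellular CCN1 (log2 -1.42).

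Immediate early genes were lower in Bojungikgi-tang. EGR1, a zinc finger transcription factor, had 11.0 and 10.1 CPM, against 24.7, 27.8 and 27.2 CPM in Sayeok-tang and 11.6 to 12.7 CPM in the vehicle (log2 -1.33 ± 0.093, edgeR adjusted p = 1.2e-15). IER3 had 88.1 and 82.6 CPM, against 188, 188 and 194 CPM in Sayeok-tang and 70.2 to 82.6 CPM in the vehicle (log2 -1.15 ± 0.071). FOS was rarely read, with 1.01 and 0.634 CPM in Bojungikgi-tang and 1.68 to 2.09 CPM in Sayeok-tang (log2 -1.19 ± 0.25). Of 17 AP-1 and EGR genes 14 were lower and none higher, with a median of -0.72. The shares called among all genes were 13.2% lower and 13.0% higher. Feedback genes of ERK signalling and EGFR ligands gave 11 lower and 1 higher of 14, with 7 lower and none higher without the Bojungikgi-tang library numbered 2. SPRY4, an inhibitor of receptor tyrosine kinase signalling, was the member with the largest change (log2 -1.02 ± 0.059), and HBEGF, an EGFR ligand, came next (log2 -0.97 ± 0.13). Among 17 YAP and SRF targets 5 were lower, led by CCN1 and ANKRD1 (log2 -1.17 ± 0.077), and 1 was higher. That list as a whole was not shifted: its median was -0.01, against 0.006 for all genes, with 8 members above and 9 below 0.

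Hypoxia and glycolysis genes were lower nearly throughout: 24 of 28 were lower, against 13.2% of all genes, and none higher, with a median of -0.38. CA9, a carbonic anhydrase of hypoxic cells, was at 0.771 and 0.752 CPM in Bojungikgi-tang and 2.13 to 2.74 CPM in Sayeok-tang (log2 -1.73 ± 0.40). PFKFB3, which makes the activator of phosphofructokinase, had 6.21 and 4.16 CPM in Bojungikgi-tang, 10.8, 10.0 and 11.3 CPM in Sayeok-tang and 6.13 to 7.78 CPM in the vehicle (log2 -1.05 ± 0.15). Among abundant members, ALDOA had 1201 and 1170 CPM in Bojungikgi-tang, against 1715, 1676 and 1714 CPM in Sayeok-tang and 1036 to 1118 CPM in the vehicle (log2 -0.52 ± 0.045; named after its values were seen). The libraries of the formulas did not overlap in any of these genes.

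Acute phase and NF-kB genes and p53 targets also had more lower than higher members. Of 13 acute phase and NF-kB genes 8 were lower, led by the chemokine CCL20 (log2 -1.30 ± 0.095) and the apoptosis inhibitor BIRC3 (log2 -0.91 ± 0.15), and 2 were higher. Of 22 p53 targets 7 were lower, among them PLK3 (log2 -0.78 ± 0.073) and the cell cycle inhibitor CDKN1A (log2 -0.72 ± 0.040), and 1 was higher. Of 24 autophagy and lysosome genes 7 were lower, or 3 without the Sayeok-tang library numbered 3, and 3 were higher. Over all genes 13.2% were called lower and 13.0% higher, so without that library the lower calls were near the share of all genes. The lysosomal galactosidase GLA was lower (log2 -0.59 ± 0.052) and the lysosomal regulator TFEB higher (log2 0.55 ± 0.085).

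**Figure D2:**
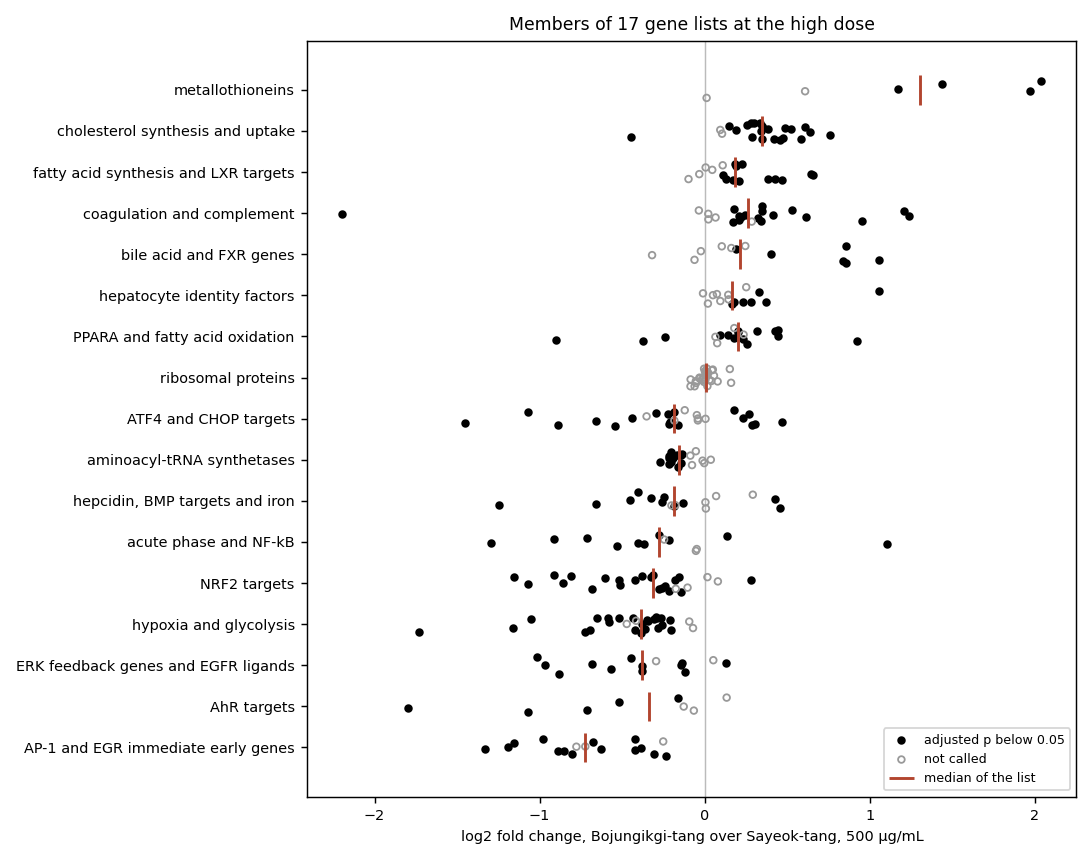
Log2 fold change of Bojungikgi-tang over Sayeok-tang at 500 µg/mL for the members of 17 gene lists; filled points were called, open points were not, and the bar is the list's median. Metallothionein, cholesterol and coagulation genes lie mostly to the right and NRF2, hypoxia, AP-1 and AhR genes to the left, while ribosomal proteins lie at 0; MT1M and CYP1A2 are left out for low counts.

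Hepatocyte products were higher in Bojungikgi-tang, and for most of them Bojungikgi-tang was at the level of the vehicle. FGA, the alpha chain of fibrinogen, had 1002 and 1055 CPM, against 434, 430 and 443 CPM in Sayeok-tang and 942 to 1028 CPM in the vehicle (log2 1.24 ± 0.052, edgeR adjusted p = 5e-23). FGG, the gamma chain, had 1006 and 1098 CPM, against 473, 445 and 448 CPM in Sayeok-tang and 961 to 1071 CPM in the vehicle (log2 1.21 ± 0.071, edgeR adjusted p = 3.1e-18). FGB, the beta chain, had 258 and 276 CPM, against 143, 133 and 137 CPM in Sayeok-tang and 254 to 266 CPM in the vehicle (log2 0.96 ± 0.060). All 3 chains were thus about as high in Bojungikgi-tang as without extract and clearly lower in Sayeok-tang. Of 22 coagulation and complement genes 16 were higher and 1 lower, with a median of 0.26, where 13.0% of all genes were called higher. Without the Bojungikgi-tang library numbered 3 the higher calls were 10. HP, haptoglobin, which binds free haemoglobin, had 195 and 196 CPM, against 95.4, 85.6 and 92.3 CPM in Sayeok-tang and 190 to 196 CPM in the vehicle (log2 1.1 ± 0.051), and it may share reads with its copy HPR. HPX, the haem carrier haemopexin, was also higher (log2 1.01 ± 0.096). Over 23 plasma proteins and apolipoproteins 10 were higher and 1 lower, with APOC3 (log2 0.56 ± 0.084) and APOA1 (log2 0.43 ± 0.056) among the rises. Hepatocyte markers as a list gave 7 higher of 12, or 4 without the Bojungikgi-tang library numbered 2.

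NR1H4, the bile acid receptor FXR, had 64.6 and 62.7 CPM in Bojungikgi-tang, against 30.8, 30.1 and 31.1 CPM in Sayeok-tang and 72.3 to 75.4 CPM in the vehicle (log2 1.05 ± 0.055, edgeR adjusted p = 5.8e-20). The libraries of the 3 groups did not overlap. KLB, the co-receptor for the gut hormone FGF19, had 188 and 195 CPM, against 102, 104 and 111 CPM in Sayeok-tang and 205 to 208 CPM in the vehicle (log2 0.86 ± 0.051). The bile acid enzymes CYP8B1 (log2 0.86 ± 0.19) and AKR1D1 (log2 0.84 ± 0.093) were higher as well. In all 6 of 12 bile acid genes were higher and none lower. Among 15 hepatocyte identity factors 7 were higher and none lower, with 4 higher without the Bojungikgi-tang library numbered 2; FOXA1 (log2 0.33 ± 0.045) and ONECUT1 (log2 0.37 ± 0.12) were the next largest after NR1H4, and the call of ONECUT1 was lost without that library or the Sayeok-tang library numbered 1. Of 14 genes of the PXR and CAR receptors and of conjugation 4 were higher and 3 lower, or 2 lower without the Sayeok-tang library numbered 1. Over all genes 13.0% were called higher and 13.2% lower. The higher members of that list included GSTA1 (log2 0.83 ± 0.067) and SULT2A1 (log2 0.58 ± 0.056). GSTA1 and GSTA2 share reads, so their split is uncertain.

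Cholesterol synthesis genes were higher in Bojungikgi-tang in 21 of 24 cases, against 13.0% of all genes, and lower in 1, with a median of 0.35. HMGCS1, which makes the precursor of mevalonate, had 372 and 365 CPM, against 233, 237 and 242 CPM in Sayeok-tang and 462 to 483 CPM in the vehicle (log2 0.64 ± 0.043, edgeR adjusted p = 2.9e-16). Bojungikgi-tang lay between Sayeok-tang and the vehicle, and no libraries of the 3 groups overlapped. The synthases LSS (log2 0.61 ± 0.053) and MVD (log2 0.58 ± 0.080) were among the larger rises.

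Fatty acid synthesis and LXR targets gave 12 higher and none lower of 17, where 13.0% of all genes were called higher and 13.2% lower. PNPLA3, a lipase of lipid droplets, led them with 26.8 and 25.5 CPM in Bojungikgi-tang, against 15.8, 17.2 and 16.8 CPM in Sayeok-tang and 25.3 to 29.9 CPM in the vehicle (log2 0.66 ± 0.069). Among PPARA and fatty acid oxidation genes 12 of 19 were higher and 3 lower, with 6 higher without the Bojungikgi-tang library numbered 3. FABP1, the liver fatty acid binding protein, had 133 and 113 CPM in Bojungikgi-tang, against 65.1, 64.5 and 64.9 CPM in Sayeok-tang and 75.9 to 96.9 CPM in the vehicle (log2 0.92 ± 0.095, edgeR adjusted p = 1.6e-10). It stood above the vehicle in Bojungikgi-tang (log2 0.49) and below it in Sayeok-tang (log2 -0.43). PLIN2, the coat protein of lipid droplets, was lower, with 115 and 121 CPM in Bojungikgi-tang, 222, 218 and 222 CPM in Sayeok-tang and 119 to 134 CPM in the vehicle (log2 -0.90 ± 0.045). Other large rises were ACSM2B (log2 1.44 ± 0.099) and ACSM2A (log2 1.42 ± 0.15), which activate medium chain fatty acids and share reads with each other. TRIM50, a ubiquitin ligase (log2 1.55 ± 0.11), TJP3, a tight junction scaffold (log2 1.52 ± 0.13), SLC6A12, a betaine transporter (log2 1.47 ± 0.14), and MAB21L4 (log2 1.13 ± 0.15) completed the largest rises.

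Amino acid response genes split. ASNS, asparagine synthetase and a target of ATF4, had 31.4 and 32.8 CPM in Bojungikgi-tang, against 45.7, 46.0 and 48.8 CPM in Sayeok-tang and 42.1 to 44.8 CPM in the vehicle (log2 -0.55 ± 0.059; named after its values were seen). Here Bojungikgi-tang lay below both other groups. The glycine transporter SLC6A9 went the other way, with 14.6 and 15.7 CPM in Bojungikgi-tang, 11.2, 11.8 and 9.86 CPM in Sayeok-tang and 18.0 to 21.5 CPM in the vehicle (log2 0.47 ± 0.078; named after its values were seen). Over 25 ATF4 and CHOP targets 12 were lower, GDF15, SLC7A11 and ATF3 (log2 -0.89 ± 0.11) with the largest changes, and 6 were higher, or 3 higher without the Bojungikgi-tang library numbered 2. Of 18 aminoacyl-tRNA synthetases 12 were lower, none by much (GARS1 log2 -0.27 ± 0.036, MARS1 log2 -0.21 ± 0.035), and 7 without that library. Endoplasmic reticulum chaperones were called about as often as all genes (13.0% higher, 13.2% lower) or less, 3 of 20 higher and 2 lower, with 1 higher without the Sayeok-tang library numbered 1 and none lower without the Bojungikgi-tang library numbered 2. Of 16 heat shock genes 3 were lower, or 1 without that Bojungikgi-tang library, and the call of BAG3 (log2 -0.24 ± 0.085) was among those lost.

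A smaller set of genes lay farther from the vehicle in Bojungikgi-tang than in Sayeok-tang. HAMP, the iron hormone hepcidin, had 30.7 and 38.6 CPM in Bojungikgi-tang, against 54.7, 54.4 and 55.4 CPM in Sayeok-tang and 69.8, 61.3 and 63.9 CPM in the vehicle (log2 -0.66 ± 0.092, edgeR adjusted p = 2.5e-07). No libraries of the 3 groups overlapped, and both formulas were below the vehicle. ATOH8, a transcription factor of the BMP pathway that switches HAMP on, had 0.730 and 0.673 CPM in Bojungikgi-tang, 1.49, 2.17 and 1.38 CPM in Sayeok-tang and 1.37 to 1.6 CPM in the vehicle (log2 -1.25 ± 0.27, edgeR adjusted p = 0.00047). The BMP target ID1 was also lower (log2 -0.45 ± 0.093), and TFR2, an iron sensor of hepatocytes, was higher (log2 0.45 ± 0.066). Of 17 hepcidin, BMP and iron genes 9 were lower and 2 higher, with 5 lower and 1 higher without the Bojungikgi-tang library numbered 2. Among all genes 13.2% were called lower and 13.0% higher, so the higher calls were near that share. SCNN1A, a subunit of the epithelial sodium channel, had 17.8 and 18.2 CPM in Bojungikgi-tang, 25.4, 27.3 and 26.2 CPM in Sayeok-tang and 29 to 30.2 CPM in the vehicle (log2 -0.55 ± 0.063). BCYRN1, a short noncoding RNA, had 22.8 and 16.3 CPM in Bojungikgi-tang, 8.10, 8.87 and 12.2 CPM in Sayeok-tang and 8.67 to 9.73 CPM in the vehicle (log2 0.99 ± 0.20). By the same rule MT-ATP8, UQCRHL, PWAR5 (log2 0.62 ± 0.11), MT-ND1 and MT-ND3 also stood farther from the vehicle in Bojungikgi-tang, and of these PWAR5 alone kept its call without the Bojungikgi-tang library numbered 2.

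The calls of genes of the mitochondrial DNA depended on 1 library. MT-ATP8 had 886 CPM in the Bojungikgi-tang library numbered 2 and 395 CPM in the other, against 354, 371 and 386 CPM in Sayeok-tang and 272 to 301 CPM in the vehicle (log2 0.79 ± 0.21, edgeR adjusted p = 0.0039). Without that library its log2 fold change was 0.09 and its edgeR adjusted p 0.85. Of 13 such genes 8 were called higher, and none without that library. The size of the difference fell there for some, such as MT-ND6 (log2 0.58, and 0.13 without the library), and not for MT-ND1 (log2 0.36, and 0.37 without it). The mitochondrial DNA held 11.2 and 10.3% of the counts in Bojungikgi-tang and 9.75, 11.2 and 10.6% in Sayeok-tang. Nuclear genes of the respiratory chain gave 4 higher of 28, a share near the 13.0% of all genes, and 1 without that library.

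Some groups were called about as often as all genes (13.0% higher, 13.2% lower) or less. None of 30 ribosomal protein genes was called, with a median of 0.005. Of 24 mitosis genes 4 were higher, or 2 without the Bojungikgi-tang library numbered 3, and 1 was lower; TOP2A is an example (log2 0.16 ± 0.040). Of 25 replication genes 4 were lower, RRM2 with the largest change (log2 -0.43 ± 0.038), and 2 were higher. Without the Bojungikgi-tang library numbered 2, 2 were lower and none higher, and with any single library left out at most 1 was higher. Interferon genes gave 2 higher and 3 lower of 16, IFIT1 among the higher (log2 1.25 ± 0.22 at 1.1 to 2.85 CPM), with 1 higher without the Bojungikgi-tang library numbered 2.

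Others held more calls, in both directions. Clock genes gave 7 higher, 4 without the Bojungikgi-tang library numbered 2, and 3 lower of 17; DBP (log2 0.68 ± 0.18) and TEF (log2 0.62 ± 0.083) were higher and BHLHE40 lower (log2 -1.41 ± 0.11). Of 14 genes of gluconeogenesis and insulin response 3 were higher and 3 lower, where 13.0% of all genes were called higher and 13.2% lower. Fewer of them were called in each direction without the Bojungikgi-tang library numbered 2. PCK1, which commits carbon to glucose synthesis, had 5.19 and 4.36 CPM in Bojungikgi-tang and 1.72, 2.97 and 1.85 CPM in Sayeok-tang (log2 1.13 ± 0.16). The vehicle had 3.73 to 3.90 CPM of it. Of 9 IGF genes 5 were lower, IGFBP1 and IGFBP3 (log2 -1.27 ± 0.31) leading, or 3 without the Bojungikgi-tang library numbered 3, and 1 was higher. Tight junction and aquaporin genes gave 7 higher and 1 lower of 12, the lower being AQP3; the higher ones were 4 without the Sayeok-tang library numbered 1 and at most 5 with any other library left out.

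**Figure D3:**
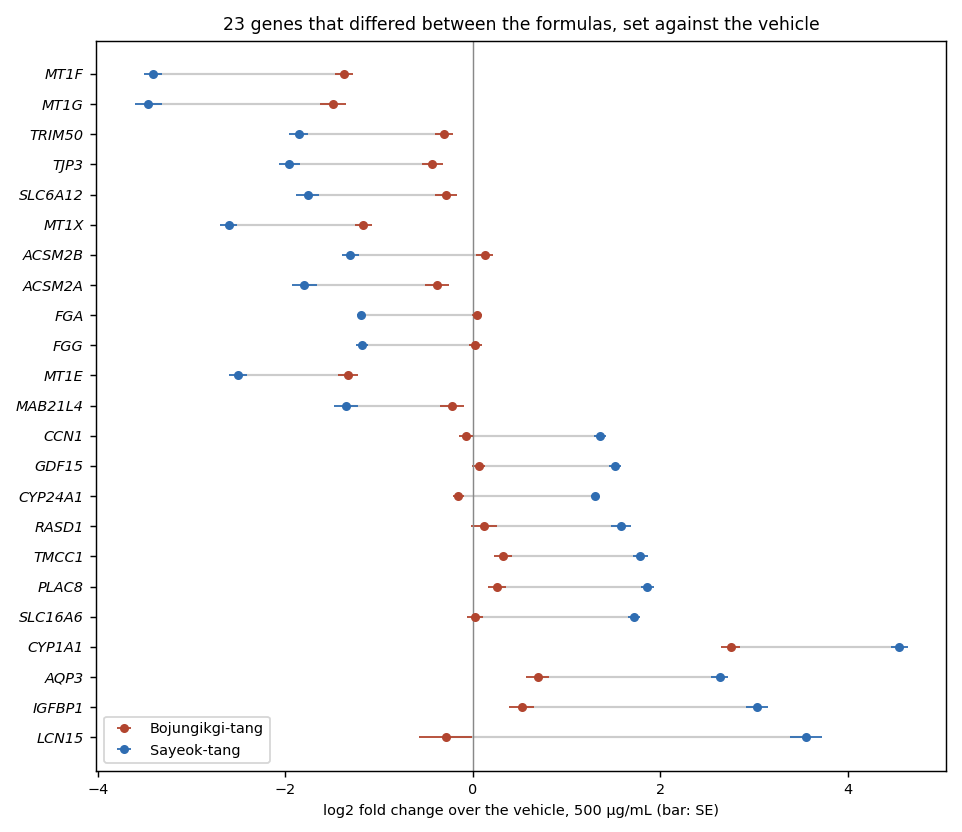
Log2 fold change against the vehicle, with its standard error, in Bojungikgi-tang and in Sayeok-tang at 500 µg/mL for 23 genes among those that differed most between the formulas. Most Bojungikgi-tang points lie near 0 and the Sayeok-tang points far from it; CYP1A1 is above 0 and the metallothioneins below 0 in both. The comparisons share the vehicle libraries.

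Against the vehicle, 635 genes were called in Bojungikgi-tang (4.55% of all genes), 313 higher (2.24%) and 322 lower (2.31%). That count was 183 without the Bojungikgi-tang library numbered 2, 426 without the one numbered 3 and 389 without the vehicle library numbered 3. In Sayeok-tang 5606 were called against the same vehicle libraries (40.2%), 2835 higher (20.3%) and 2771 lower (19.9%). Of the largest falls between the formulas, GDF15 was at log2 0.06 in Bojungikgi-tang and 1.52 in Sayeok-tang against the vehicle. FGA, among the rises, was at log2 0.05 in Bojungikgi-tang and -1.19 in Sayeok-tang. CYP1A1 was far from the vehicle in both, at log2 2.75 and 4.55, as were MT1F at -1.37 and -3.41 and MT1G at -1.49 and -3.46, Bojungikgi-tang first in each pair.

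The medium dose asked the same question in other libraries. At 100 µg/mL 44 genes differed between the formulas (0.316%), 28 higher in Bojungikgi-tang (0.201%) and 16 lower (0.115%). The share of higher calls was 63.6%, against 51.0% by DESeq2, 45.2% in a fit of the groups compared alone and 41.7% without the filter on low counts. Of these 44, 42 were also called at the high dose, all in the same direction and 41 of them with a larger difference there. They were 95.5% of the medium dose calls and 1.15% of the high dose calls. Of all genes, 26.2% were called at the high dose and 0.316% at the medium dose. The genes not called at the high dose were MT2A and TACC1. MT2A had 358 and 356 CPM in Bojungikgi-tang, against 222, 229 and 199 CPM in Sayeok-tang, with no overlap (log2 0.72 ± 0.10, edgeR adjusted p = 3.8e-05). MT1F had 45.4 and 46.7 CPM, against 27.5, 24.9 and 25.1 CPM in Sayeok-tang (log2 0.84 ± 0.089, edgeR adjusted p = 3.4e-08). CYP1A1 had 22.3 and 19.1 CPM, against 44.3, 45.0 and 43.3 CPM in Sayeok-tang (log2 -1.09 ± 0.10, edgeR adjusted p = 1.3e-09). Of the lists, the metallothioneins had 6 of 7 higher, NRF2 targets 2 of 25 lower, AP-1 and EGR genes 2 of 17 lower and AhR targets 1 of 9 lower. AKR1B10 (log2 -0.45), SLC39A10 (log2 -0.37), RNASET2 (log2 -0.36) and FOSL1 (log2 -0.40) were lower and MT1G (log2 0.91), MT1E (log2 0.69) and SLC6A12 (log2 0.68) higher. The calls of FOSL1, RNASET2, SLC39A10 and SLC6A12 were lost when single medium dose libraries were left out. The medium count ran from 7 to 32 with 1 library left out, with 7 genes without the Bojungikgi-tang library numbered 3, 15 without the Bojungikgi-tang library numbered 2 or the Sayeok-tang library numbered 3, and 25 without the Sayeok-tang library numbered 2.

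At 20 µg/mL no gene was called by edgeR's quasi-likelihood test or by DESeq2, with 482 genes at an unadjusted p below 0.05. CYP1A1 had 11.3 and 13.9 CPM in Bojungikgi-tang and 16.8, 15.7 and 14.5 CPM in Sayeok-tang, without overlap (log2 -0.31, edgeR adjusted p = 1). MT1F had 50.8 and 60.4 CPM in Bojungikgi-tang and 52.1, 53.5 and 48.8 CPM in Sayeok-tang, where the groups overlapped.

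**Figure D4:**
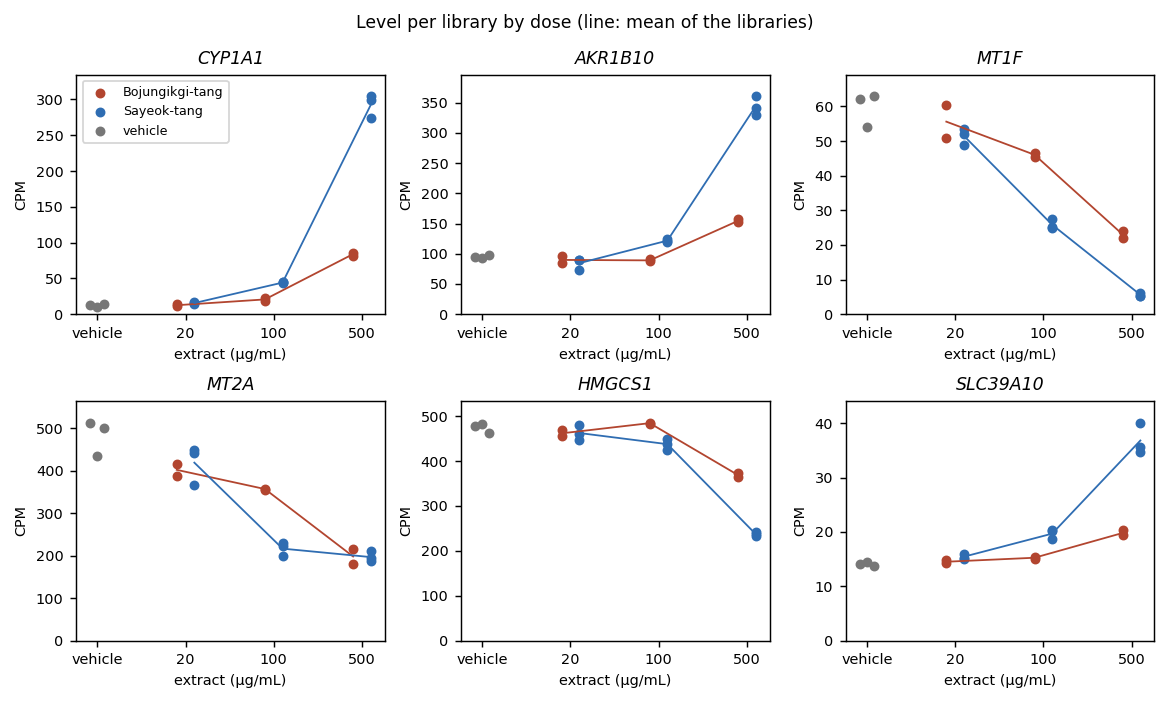
CPM of CYP1A1, AKR1B10, MT1F, MT2A, HMGCS1 and SLC39A10 in each library of the vehicle and of 20, 100 and 500 µg/mL of each formula; points are libraries, lines join group means and doses are evenly spaced. The formulas lie close at 20 µg/mL and apart at 500 µg/mL, except MT2A, which is apart at 100 µg/mL.

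Within each formula the high dose was compared with the low dose, which leaves the vehicle out. In Bojungikgi-tang 235 genes changed (1.69%), 113 higher at the high dose (0.81%) and 122 lower (0.875%); in Sayeok-tang 5249 did (37.6%), 2562 higher (18.4%) and 2687 lower (19.3%). The Bojungikgi-tang count was 81 without its high dose library numbered 2, 141 without its low dose library numbered 2 and 83 without its low dose library numbered 3. Of the lists, Bojungikgi-tang raised 11 of 25 NRF2 targets and 3 of 9 AhR targets and lowered 6 of 7 metallothioneins and 8 of 24 cholesterol genes. Sayeok-tang raised 22 of 25 NRF2 targets, 24 of 28 hypoxia genes and 13 of 17 AP-1 and EGR genes, and lowered all 7 metallothioneins and 23 of 24 cholesterol genes. CYP1A1 rose with dose by log2 2.74 in Bojungikgi-tang and 4.22 in Sayeok-tang, and MT1F changed by -1.27 in Bojungikgi-tang and -3.20 in Sayeok-tang. HAMP changed by -0.99 ± 0.099 in Bojungikgi-tang and -0.25 ± 0.077 in Sayeok-tang.

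The effects of dose had no libraries in common, so their difference could be tested directly. It was called for 1932 genes (13.9%): 975 were positive, with a dose effect higher in Bojungikgi-tang (6.99%), and 957 negative (6.86%). The count was 1252 without the Bojungikgi-tang high dose library numbered 2 and 1195 without its low dose library numbered 3. Among the lists it was negative for 15 and positive for 1 of 25 NRF2 targets, negative for 18 of 28 hypoxia genes and 13 of 17 AP-1 and EGR genes, and positive for 18 and negative for 1 of 24 cholesterol genes. Of 9 AhR targets it was negative for 2 and not called for the other 7. For the metallothioneins it was positive for 5 of 7. CYP1A1 had a difference of -1.49 ± 0.15 (edgeR adjusted p = 2.7e-10) and HAMP one of -0.74 ± 0.13 (edgeR adjusted p = 2.1e-05), with the larger dose effect in Sayeok-tang for CYP1A1 and in Bojungikgi-tang for HAMP.

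Dose moved 193 genes in both formulas. They made up 82.1% of the genes called in Bojungikgi-tang and 3.68% of those called in Sayeok-tang. Of all genes, 37.6% were called for dose in Sayeok-tang and 1.69% in Bojungikgi-tang. For 181 the direction was the same and for 12 it was opposite, and 155 had the larger change in Sayeok-tang. The opposite genes named here were picked after their values were seen. CYP24A1 fell with dose in Bojungikgi-tang (log2 -0.31 ± 0.060), with 39.7 and 41.7 CPM at the high and 50.6 and 50.5 CPM at the low dose. In Sayeok-tang it rose with dose (log2 1.11 ± 0.045), with 106, 114 and 115 CPM at the high and 51.1, 52.0 and 53 CPM at the low dose. The edgeR adjusted p of the difference was 1.6e-18. ANKRD1, a YAP and SRF target, fell with dose in Bojungikgi-tang (log2 -0.52 ± 0.086) and rose in Sayeok-tang (log2 0.64 ± 0.065), with an edgeR adjusted p of the difference of 1.9e-11. The calcium-binding protein S100P (log2 -0.49 in Bojungikgi-tang, 0.67 in Sayeok-tang) and the EGFR inhibitor ERRFI1 (log2 -0.24 and 0.69) shared that pattern. KHK, which phosphorylates fructose (log2 0.21 in Bojungikgi-tang, -0.12 in Sayeok-tang), and MAT1A, which makes S-adenosylmethionine in the liver (log2 0.23 and -0.14), had the reverse one. The others were GJB1, IFRD1, PALM3, SH2B3, TGFBI and TNFRSF10D.

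**Figure D5:**
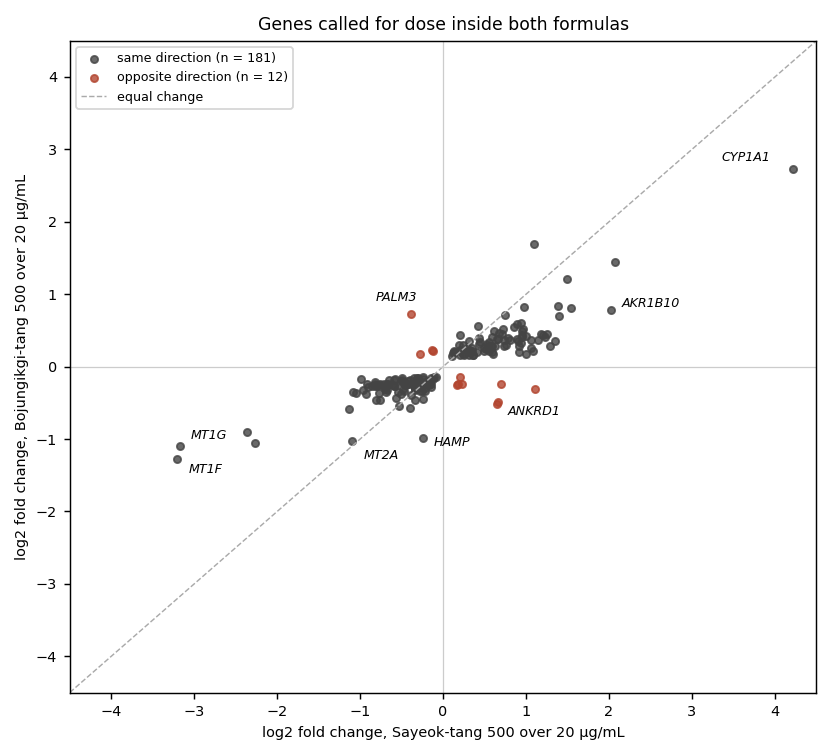
Log2 fold change of the high over the low dose in Sayeok-tang (x axis) and in Bojungikgi-tang (y axis) for the genes called in both. The dashed line marks equal change. Of the 193 genes called in both, 181 share their direction, 12 lie in the opposite quadrants, and 155 have the larger change in Sayeok-tang. MT1M, at log2 -5.30 in Sayeok-tang and -2.18 in Bojungikgi-tang, lies outside the axes.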

How the data were processed

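Total RNA of HepG2 cells was sequenced (RNA integrity number above 7, 1 µg of RNA, 100 bp reads, per the labels' protocols). Per the submitters' processing notes, reads passed FastQC 0.11.9 and Trim Galore 0.6.5 and were handled with STAR 2.7.3a and RSEM 1.3.3 on GRCh38/hg38. The deposited values are expected counts per gene from RSEM, estimated counts that divide shared reads between genes; they were rounded to whole numbers. The 209 columns of other samples were not used. Symbols came from the gene name table for 56558 of 60675 IDs and from GENCODE 29 for 497.

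The 13945 genes that reached 1 CPM in 3 or more of 58 libraries were fitted with 24 group means in edgeR 4.0.16 (R 4.3.3, TMM, quasi-likelihood test, Benjamini-Hochberg adjustment, threshold 0.05); the biological coefficient of variation was 4.25%. Standard errors are the log2 fold change over the root of F. The step was also run on independent counts simulated from the fitted means and spread. Such counts cannot show how a single deviating library affects the calls. DESeq2 1.42.0, RLE scaling, no filter, smaller fits, a replicate block and leaving out each library were alternatives. Named were the 12 largest rises and falls (at least 5 CPM in the higher group, no overlap), up to 4 called genes a list, up to 8 farther from the vehicle in Bojungikgi-tang and, in other comparisons, the 5 largest each way; exceptions are marked, and results of some genes are not reported here. The members and the 41 lists were chosen with earlier results of these data known. The labels give 0.1% DMSO where the series text gives 2%. Promoters came from RefSeq (GRCh38.p14).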

Additional observations from a re-analysis of the deposited data

Results flagged for a closer look

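The effect of the high against the low dose differed between Bojungikgi-tang and Sayeok-tang for 1932 genes by a test of the difference itself (edgeR's quasi-likelihood test, Benjamini-Hochberg adjusted p below 0.05). The differences below are the Bojungikgi-tang dose effect minus the Sayeok-tang dose effect on the log2 scale, for genes with a large difference each way. They were positive for MT1G (2.07), MT1F (1.93), TJP3 (1.56), TRIM50 (1.49) and MT1X (1.46). They were negative for LCN15 (-3.62), IGFBP1 (-2.49), AQP3 (-2.03) and SLC16A6 (-1.74). All 9 kept their call and direction under the alternatives run. The groups have 2 or 3 libraries each, too few for a check of single libraries against the rest of their group.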

How the results depend on the processing

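Between the formulas and between doses, no called gene changed its direction under the alternatives run; against the vehicle, some genes near 0 that were not called changed sign. At the high dose the count of called genes was 2099 to 3291 with 1 library left out, the lowest without the Bojungikgi-tang library numbered 2; without the filter, with RLE scaling, in smaller fits, by DESeq2 (3213) and under the replicate block (3501) it stayed within 1.5 times. Leave-one-out counts were 7 to 32 at the medium dose, 0 to 0 at the low dose, 81 to 164 for Bojungikgi-tang high against low, 4428 to 4697 for Sayeok-tang high against low and 1195 to 1828 for the difference of dose effects; against the vehicle they were 183 to 464 for Bojungikgi-tang and 4869 to 5022 for Sayeok-tang. Without the filter on low counts 156 genes were called at the medium dose, 88 at the low dose and 393 for Bojungikgi-tang high against low. A fit of the formulas alone called 29 genes at the medium dose, and a fit of the groups compared called 70 for Bojungikgi-tang high against low. The lean of the medium dose calls turned: 63.6% were higher in Bojungikgi-tang, against 41.7% without the filter, 45.2% with only the groups compared and 51.0% by DESeq2. The cause of these shifts was not tested. Same-numbered libraries of the formulas correlated weakly at every dose (0.042 and 0.026 at the high, 0.066 and 0.030 at the medium, 0.069 and 0.061 at the low), and those of Bojungikgi-tang high and low at 0.127. The labels do not say what a number marks and Bojungikgi-tang has 2, so they were not treated as pairs; with the replicate block 42 genes were called at the medium dose, 0 at the low, 250 and 5219 for the dose effects of Bojungikgi-tang and Sayeok-tang and 1945 for their difference. Of 154 genes named at the high dose, 30 lost their call without the Bojungikgi-tang library numbered 2 and 17 without the one numbered 3. Groups of 2 and 3 libraries, and genes near 1 CPM, limit what small differences can be called.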
